A study of Drosophila melanogaster with 2 samples.

Results

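The core cell death machinery of Drosophila comprises 10 genes here. They are the activators rpr, hid, grim and skl, the initiator caspase Dronc with its adaptor Dark, the effector caspases Drice and Dcp-1, and the inhibitors Diap1 and Diap2. Members were found by symbol in the platform annotation, with older symbols updated by gene ID, and each was read by its brightest probe set that names a single gene. By this rule 6 of the 10 members had a probe set, out of 10843 genes named on the array, namely grim, skl, Dronc, Dark, Dcp-1 and Diap2. No probe set in the annotation used here names rpr, hid, Drice or Diap1, so these 4 genes were not analysed here. Each of the 6 was read by 1 probe set.

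In Drosophila, cells are held alive by inhibitor of apoptosis proteins, chiefly Diap1, which bind caspases and keep them inactive. The activator proteins Reaper, Hid, Grim and Sickle bind these inhibitors and release the caspases. The initiator caspase Dronc then assembles with Dark, the fly counterpart of mammalian Apaf-1, and cleaves the effector caspases Drice and Dcp-1, which take the cell apart. In the embryo this pathway removes surplus cells, among others in the nervous system and the head, and dying cells are cleared by hemocytes and glia.

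RNA was measured on 2 Affymetrix arrays, 1 for the yw stock and 1 for tdf mutant homozygotes. The gene tdf, now called apontic (apt), encodes a transcription factor. All embryos were taken 16 h after egg laying at 25 °C. The tdf homozygotes were recognised by means of a CyO balancer chromosome carrying an actin-GFP marker. The yw stock, named for its yellow and white mutations, is separate from the mutant stock, so the genetic backgrounds and the tdf mutation cannot be told apart. The sources used here do not give the tdf allele or how many embryos were pooled.

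Each genotype has 1 array and therefore no replicate. Every difference below is a single difference between these arrays, with no test, standard error or p-value. A gene was called measured when at least 1 of its signals reached 97.3, the 40th percentile of gene probe sets, and signals under this floor were set to it before computing the log2 ratio of tdf over yw. There were 7639 measured genes, with a median log2 ratio of 0.03. The closest measure of error was the spread among probe sets that read the same gene, an SD of the log2 ratio of 0.53 over 278 genes. This SD is technical and was taken within these arrays. It holds no variation between replicate arrays or between embryos. The signal of apt was 979 on yw and 1051 on the tdf-labelled array, so the apt probe set did not check the label. The late cuticle gene TwdlM had signals of 41034 and 57775. The early maternal gene osk was below the floor on both arrays. However, 10 of the 14 maternal and early embryo genes with a probe set were measured, among them smg with 1528 on yw. The poly(A) controls that exceeded the floor in both samples (6) showed a median log2 ratio of -0.91, while that of the 9 hybridisation controls was -0.07. The 3' to 5' signal ratio, which is larger in degraded or incompletely copied RNA, was higher on the tdf-labelled array for 18S rRNA (14.9 against 32.2), actin (32.7 against 52.3) and eIF-4a (45.5 against 56.6) and lower for GAPDH (22.8 against 17.3). The part of these controls in the gene ratios was not tested.

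Of the 6 core members, Dronc alone was at least 2-fold apart between the arrays, and it was lower on the tdf-labelled array. None was at least 2-fold higher. Among all measured genes, 6.19% were at least 2-fold lower and 3.6% at least 2-fold higher, so a count of 1 in 6 members says little against that background. The median log2 ratio of the 6 members was -0.24, beside 0.03 over all measured genes, and 4 of the 6 were above the floor on both arrays. In bulk RNA, fewer cells that express a gene and less RNA per cell cannot be told apart.

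**Figure D1:**
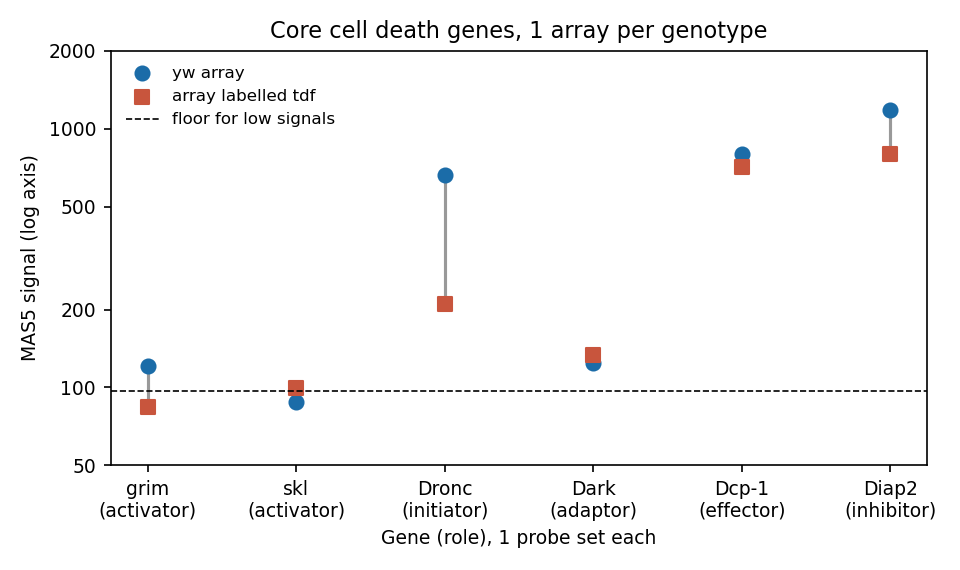
MAS5 signal (log axis) of the 6 core members with a probe set, on the yw array (circles) and the tdf-labelled array (squares), 1 array each with no replicate. The dashed line is the floor of 97.3, and the separation is widest for Dronc (661 against 210).

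The activators were read near the floor. The signal of grim, which encodes a small protein that binds and disables Diap1, was 121 on yw and 84.0 on the tdf-labelled array. The second value lies below the floor, so the log2 ratio of -0.31 is bounded there, a signal at least 1.24-fold lower. The signal of skl (sickle), a relative of reaper and grim, was 87.8 on the yw array, below the floor, and 99.9 on the tdf-labelled array, just above it. Its log2 ratio of 0.04 turned to -0.02 under loess normalisation, so no direction is given for skl. Both activators were thus so dim that a decrease on either array could hardly have been seen.

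The activator genes lie in a cluster on the left arm of chromosome 3. In the gene order of the RefSeq table, 13 other genes lie between hid and skl, the outermost members, and 4 of these code for protein. Each of these 4 was below the floor on both arrays, among them CheA75a at 13.0 and 8.94 and CG5103 at 53.1 and 57.6. In the same order, grim is followed by an lncRNA gene and an antisense RNA gene, for which no probe set was named. Gene order does not show whether they overlap grim, and the strand that the grim probe set reads was not checked. Of the 5 genes on each side of the cluster, 5 had a probe set. The 1 that was at least 2-fold apart was CG7330, with 2299 on yw and 6099 on the tdf-labelled array, a log2 ratio of 1.41. Its neighbours CG13699, between it and hid, and geko, on the other side, had log2 ratios of 0.34 and -0.32.

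Dronc, the initiator caspase, was read at 661 on yw and 210 on the tdf-labelled array, both well above the floor. The signal was 3.15-fold lower, a log2 ratio of -1.65, or 31.8% of the yw value. Only 1.48% of measured genes had a lower ratio. Of the 500 measured genes nearest in signal, with Dronc itself counted, 14 had a ratio as low as that of Dronc or lower. Expressed in median absolute deviations of those neighbours in signal, Dronc stood at -2.72, short of the stricter limit of 3, which 1.45% of measured genes passed in the lower and 0.537% in the higher direction. No core member passed it. The log2 ratio of Dronc ran from -1.69 to -1.48 over the 7 other scalings, floors and probe set choices tried. Here -1.48 is a bound, since the floor at the 60th percentile lies above the tdf signal. The probe set choices could not change this ratio, because Dronc has a single probe set, without a suffix letter. Nor could the floor at the 25th percentile, since both signals exceed it. On the ratios as reported, Dronc was also the 1 core member beyond 1.5-fold and beyond 3-fold, though Diap2 just passed 1.5-fold when centred on the median. Limits of 1.5-fold took 15.3% of all measured genes in the lower and 13.2% in the higher direction, and limits of 3-fold took 1.78% and 0.458%.

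Dark, the adaptor that assembles Dronc into the apoptosome, did not share this difference. Its signal was 124 on yw and 134 on the tdf-labelled array, a log2 ratio of 0.10, which lay between 0.02 and 0.10 under the alternatives in which it was measured. The log2 ratio of Dark exceeded that of Dronc by 1.76 (0.10 against -1.65). Dark was close to the floor, where a loss could be seen only down to 97.3.

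**Figure D2:**
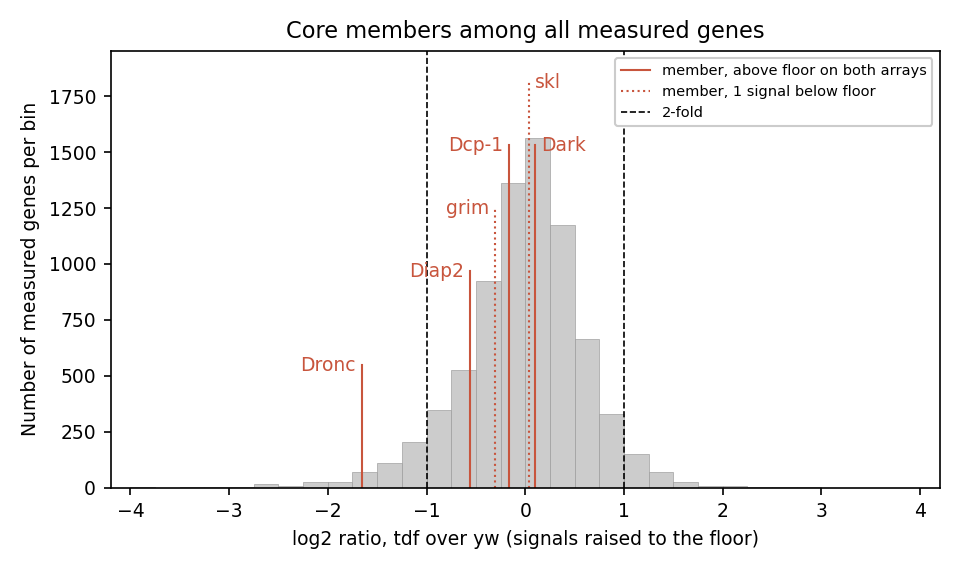
Number of measured genes (vertical axis) by log2 ratio of tdf over yw (horizontal axis, bins of 0.25), with the 6 core members marked. Dashed lines stand at a 2-fold difference and dotted member lines have 1 signal below the floor. Dronc, at -1.65, is the 1 member outside the 2-fold lines.

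Dcp-1, an effector caspase cleaved by Dronc, was read at 800 on yw and 713 on the tdf-labelled array. Its log2 ratio of -0.17, or 89.2% of the yw signal, lay well within the technical SD of 0.53, with 35.2% of measured genes lower. Diap2, an inhibitor that binds effector caspases and also serves as a ubiquitin ligase in the Imd immune pathway, was read at 1175 on yw and 799 on the tdf-labelled array. The signal was 1.47-fold lower, a log2 ratio of -0.56, close to that SD, and 16.0% of measured genes had a lower ratio. Dcp-1 was thus nearly level between the arrays and Diap2 moderately lower, and neither reached a 2-fold difference under any of these alternatives. The log2 ratio of Dronc lay below that of Dcp-1 by 1.49 and below that of Diap2 by 1.10.

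**Figure D3:**
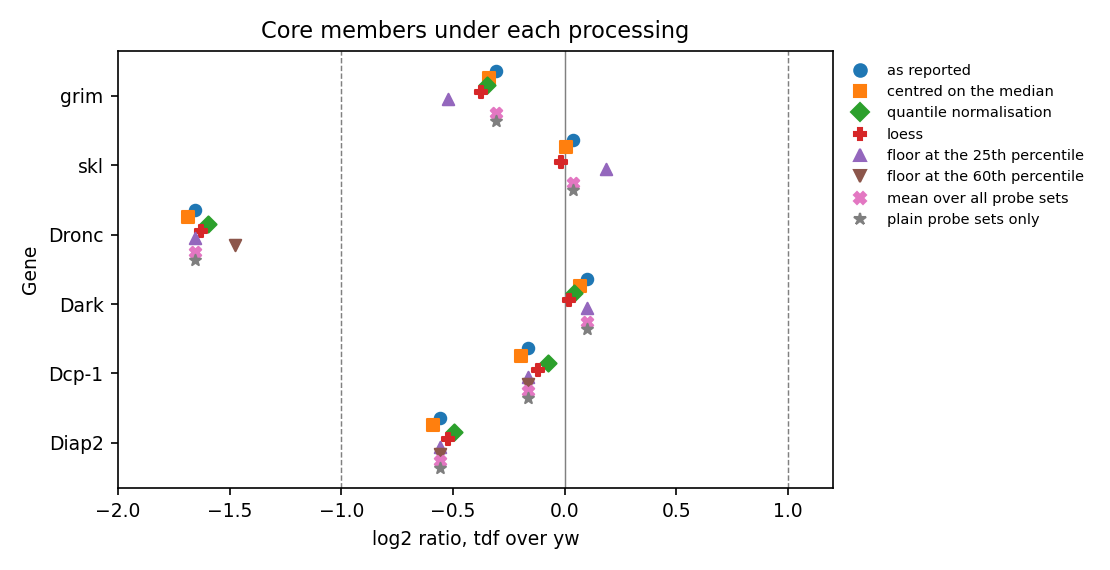
Log2 ratio of tdf over yw (horizontal axis) of each core member as reported and under 7 other scalings, floors and choices of probe set. Each processing in which the member was measured has 1 marker. With 1 probe set per member, the choices of probe set could not move a marker. Dashed lines stand at 2-fold. Dronc stays between -1.69 and -1.48 (a bound, with the floor at the 60th percentile), and the other members lie inside the 2-fold lines throughout.

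Dronc was set beside markers of other cells and stages. Of 15 maternal and early embryo genes, 10 were measured, 6 of them at least 2-fold lower and none higher. The summed signal of the 14 with a probe set was 8594 on yw and 1150 on the tdf-labelled array. The RNA-binding repressor smg had 1528 and 73.5, at least 15.7-fold lower. The gene swa, which localises bicoid mRNA, was at least 11.4-fold lower, and the brightest, kuk, a nuclear envelope gene of the early embryo, was 8.24-fold lower. None of these genes was listed at 0, and osk, png, bnk and zld were below the floor on both arrays. Of 18 cell cycle genes, 12 were measured and 6 were at least 2-fold lower, led by CycB (10.4-fold lower) and CycB3 (9.04-fold lower). The 13 with a probe set had a summed signal of 17523 and 3503. Without CycB and CycB3 the summed signal was 4437 and 2196, and 4 of 10 measured genes were at least 2-fold lower. Dronc was therefore low on the array on which these genes were low, and their part in its difference was not tested.

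The remaining marker lists differed less, or were higher. None of 12 measured hemocyte genes was at least 2-fold apart after signals were raised to the floor. The 13 with a probe set had a summed signal of 18597 and 21015. The brightest, the collagen gene Col4a1, had a log2 ratio of 0.24. The furthest of the measured genes were NimC1 (13.2 against 182, at least 1.87-fold higher) and srp (115 against 205). For NimC1 the ratio is a bound set by the floor, so its difference may exceed 2-fold. None of 3 measured neuronal genes was 2-fold apart. The summed signal of the 6 with a probe set was 2633 and 2125. Among the measured genes, nSyb had a log2 ratio of -0.44 and the brightest, Csp, -0.36. Of 8 epidermis and cuticle genes, 3 were at least 2-fold higher and none lower, with a summed signal of 54296 and 88619. TwdlD was 2.68-fold and Cpr49Af 2.63-fold higher. Of the housekeeping genes, 3 were measured, with RpL32, the brightest, at a log2 ratio of 0.20 and Gapdh1 at 0.18.

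Beyond the core, 100 further genes were listed by role, and with the members they make up a wider cell death list of 110 genes. Of these 87 had a probe set and 72 were measured. At least 2-fold lower were 6 (8.33%), and none was at least 2-fold higher, beside 6.19% and 3.6% of all measured genes. The median log2 ratio was -0.17, beside 0.03 over all measured genes, and 50 of 72 (69.4%) were below 0, beside 47.6% of all measured genes. Among those counted below 0, br, hep and Atg13 had another probe set, above the floor, that was higher on the tdf-labelled array. Of the 72, 64 had both signals above the floor, and the ratios of the others are bounds whose sign is set by the array on which they passed the floor. Under the other scalings, floors and choices of probe sets this median ran from -0.21 to -0.15. The 6 lower genes were Dronc, Det, Traf6, msn, Pink1 and ced-6.

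**Figure D4:**
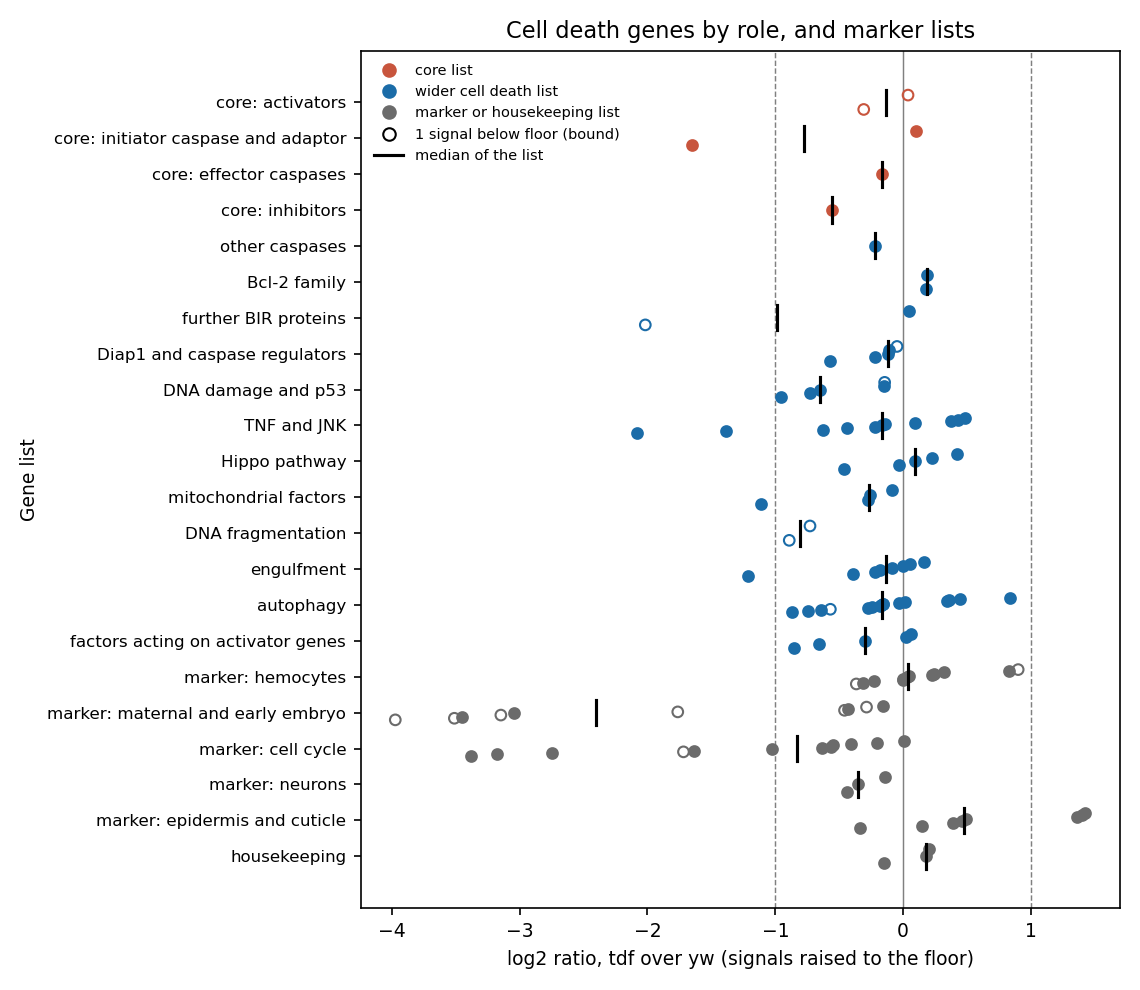
Log2 ratio of tdf over yw (horizontal axis) for every measured gene of each list (rows), 1 point per gene, with the list median as a black bar. Open points have 1 signal below the floor and dashed lines stand at 2-fold. The cell death lists hold 6 genes beyond 2-fold lower and none beyond 2-fold higher, while the maternal and cell cycle lists reach -3.97 and -3.38.

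Among further caspases, Dredd, which acts in the Imd immune pathway, was the 1 of 4 that was measured, with 415 on yw and 355 on the tdf-labelled array. Strica and Damm were below the floor on both arrays. The Bcl-2 family genes were nearly level. Debcl, which promotes cell death, had 1760 and 2004 (log2 ratio 0.19), and Buffy, which counters it, had 154 and 174 (0.18).

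Proteins with a BIR domain, the fold through which inhibitors bind caspases, include Bruce and Det beside the Diap genes. Det (deterin), the fly counterpart of survivin, had 394 on yw and 51.6 on the tdf-labelled array, at least 4.05-fold lower. Survivin is also known as a subunit of the chromosomal passenger complex that acts in mitosis. In that complex it works with the kinase aurB, which had 320 and 46.1 here, with its second value likewise under the floor, and which was picked after its values were seen. Bruce, a very large inhibitor with ubiquitin-conjugating activity, had 109 and 112, a log2 ratio of 0.04, although in local terms it lay slightly below genes of like signal (-0.50 local median absolute deviations).

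Of the genes that act on Diap1 or caspase protein, 5 were measured, 4 with both signals above the floor, and none was 2-fold apart. The kinase gene IKKepsilon, whose product drives Diap1 turnover, had 270 and 181 (log2 ratio -0.57), the F-box gene morgue 493 and 423 (-0.22), and the ubiquitin ligase scaffold Cul3, the brightest, 729 and 674 (-0.11).

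Of the DNA damage and p53 list, 5 genes were measured, 4 with both signals above the floor, and none was 2-fold apart. The double-strand break repair gene mre11 had 324 and 167 (log2 ratio -0.96) and grp, the Chk1 checkpoint kinase that also paces the early embryonic cycles, had 1304 and 787 (-0.73). For p53 itself, the fly homologue of the tumour suppressor and a direct regulator of rpr, the signals were 262 and 237 (-0.15), a value given although the rule for named genes did not choose it.

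In the TNF and JNK list, 2 of 11 measured genes were at least 2-fold lower and none higher. The TNF receptor adaptor Traf6 had 1148 on yw and 271 on the tdf-labelled array, 4.23-fold lower. The kinase msn (misshapen), which acts upstream of JNK, had 965 and 370, 2.61-fold lower. The JNK gene bsk itself, the brightest of the list, had 2780 and 2519, a log2 ratio of -0.14, and the list median was -0.17. Traf6 and msn were thus far apart between the arrays while bsk differed little.

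None of the 5 measured Hippo pathway genes, whose output through yki sustains Diap1 transcription, was 2-fold apart. The signals were 138 and 99.6 for the kinase gene hpo (log2 ratio -0.47), 353 and 472 for the upstream regulator Mer (0.42) and 833 and 972 for yki (0.22).

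Of the mitochondrial factors, 1 of 4 measured was at least 2-fold lower. This was Pink1, a kinase of mitochondrial quality control, with 1404 and 651 (2.16-fold lower). AIF had 553 and 458 (log2 ratio -0.27), and the brightest, Tango7, listed now as the translation factor gene eIF3m and known to act on Dronc, had 7435 and 6226 (-0.26). The genes for DNA fragmentation factors were dim. Drep1 had 161 on yw and 55.0 on the tdf-labelled array (at least 1.66-fold lower), Drep2 had 180 and 34.0 (at least 1.85-fold lower), and Drep3 and Drep4 were below the floor on both arrays.

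Among genes that clear dying cells, 1 of 8 measured was at least 2-fold lower and none higher. The adaptor ced-6, which acts downstream of the engulfment receptor Draper, had 310 and 134, 2.32-fold lower. The kinase gene Shark, which signals from Draper, had 565 and 431 (log2 ratio -0.39), and the brightest, prtp, a ligand of Draper, had 5061 and 4460 (-0.18). The receptor genes drpr, NimC4 and crq had log2 ratios of 0.05, -0.09 and 0.00 and were picked after their values were seen.

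Autophagy genes had none of 16 measured 2-fold apart and a median of -0.17. The conjugation enzyme gene Atg7 had 261 and 143 (log2 ratio -0.87), the lipid kinase gene Pi3K59F (Vps34) 253 and 450 (0.83) and the brightest, Atg8a, 6263 and 6130 (-0.03). Of the transcription factors known to act on the activator genes, 5 were measured and none was 2-fold apart. The Hox gene Dfd, which acts on rpr in the head, had 224 and 228 (log2 ratio 0.03). The ecdysone receptor partner usp had 203 and 129 (-0.66), and br (broad) had 245 and 136 (-0.85) on its brightest probe set but 106 and 242 on another, so no direction is given for br.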

How the data were processed

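The authors deposited linear intensities, 1 for each probe set of an array, which were computed with MAS5 per the submitters' processing notes. No MAS5 version or setting is given in these sources. Of 14010 probe sets, 44 were controls, and 12442 of the others named 1 gene in the platform annotation, whose symbols were updated by gene ID through the RefSeq gene table of Release 6 plus ISO1 MT. MAS5 subtracts an estimate of mismatch signal, which leaves dim probe sets noisy. A gene was read by the probe set of highest mean signal, floored and turned into a log2 ratio as described. At least 2-fold was a fixed rule of size, not a test. The members and lists were chosen with earlier results of these data known. In each list, the 2 genes with the largest ratio and the brightest were named. Of 179 listed symbols, 4 were found through a synonym and 1, nos, was not resolved. The planned protein descriptions were not made, so no sequence is shown. The steps were tested on simulated arrays. The alternatives were centring on the median, quantile normalisation, loess (span 0.3), a floor at the 25th or at the 60th percentile, averaging the probe sets of each gene, using only probe sets without a suffix letter, and limits of 1.5-fold, 3-fold and 3 local median absolute deviations over 500 genes. Python 3.11.15 was used with pandas 2.3.3, numpy 2.4.6 and statsmodels 0.14.6.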

Additional observations from a re-analysis of the deposited data

How the results depend on the processing

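No paired analysis was possible because each genotype has 1 array, and for the same reason no replicate could be left out. The log2 ratios of the 6 core members moved by less than the technical SD of 0.53 under each alternative scaling or floor in which they were measured. Centring shifts every gene by the same 0.03. Each member has a single probe set, without a suffix letter, so the probe set choices could not change its ratio. The signs stayed, except that skl turned to -0.02 under loess. With the floor at the 60th percentile, grim, skl and Dark were no longer measured and the core median became -0.56 over 3 genes. Under quantile normalisation skl was not measured either, and the core median was -0.35 over 5 genes. On the ratios as reported, Dronc was the 1 core gene beyond 1.5-fold or 3-fold as well. With the limit of 3 local median absolute deviations 0 core genes were lower. Centred on the median, Diap2 had a log2 ratio of -0.589, just past 1.5-fold. Of the wider list, 17 genes were lower and 1 higher at 1.5-fold, 3 were lower at 3-fold (Traf6, Det and Dronc) and 2 lower with the local limit (Traf6 and Det). The 17 include br and hep, each of which had another probe set that was higher on the tdf-labelled array. With the floor at the 25th percentile, 8 of 80 were at least 2-fold lower and 1 higher, slpr, whose yw signal of 21.6 was under that floor too. Over all measured genes, 1171 were lower and 1005 higher at 1.5-fold, 136 and 35 at 3-fold, and 111 and 41 with the local limit. The floor at the 25th percentile gave 683 lower and 607 higher of 9158 measured genes, and that at the 60th 267 lower and 119 higher of 5310. Fewer genes pass a higher floor or limit by construction. Low signal limits what can be seen for grim, skl and Dark.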

Other observations

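Second probe sets disagreed for some listed genes. The JNK kinase gene hep had 304 on yw and 197 on the tdf-labelled array on its brightest probe set, but 139 and 168 on the other. The autophagy gene Atg13 had 3057 and 2524 on its brightest probe set and 156 and 220 on the other. By contrast, both probe sets of EcR were nearly level, at 162 and 169 and at 157 and 166. Each core member rests on a single probe set, so no such comparison exists for Dronc.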
